A study of Pimephales promelas with 139 samples.

Results

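Fathead minnow larvae (Pimephales promelas) exposed to any of 5 concentrations of ethinyl estradiol were pooled and set against control larvae of the same 3 experiments, to find transcripts that differed in exposed larvae whatever the concentration. The exposed set held 78.4% of the 139 libraries of the series: 17, 30, 17, 17 and 28 larvae at 0.12, 1.2, 2.5, 5 and 10 ng/L. The control set held the 29 libraries labelled 0 ng/L. Experiments 1, 2 and 3 contributed 35, 37 and 37 exposed larvae and 10, 9 and 10 control larvae. All exposed and control larvae were whole animals collected at 96 h after hatching, after 48 h of static exposure that began 48 h after hatching, and messenger RNA was sequenced. The remaining library, D07 at 2.5 ng/L, was left out by the rule that defines the 2 sets. It held reads of 30768 transcripts, while every other library held reads of at least 34800. The labels give no vessel, parentage or sex of a larva, so a p-value here measures spread between larvae that may share a vessel or parents.

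Ethinyl estradiol is the synthetic estrogen of oral contraceptives and reaches rivers with treated sewage. In fish, estrogens bind nuclear receptors that act as transcription factors in liver, brain and gonad. The best-known target is vitellogenin, the egg yolk precursor, which the liver of females makes during egg growth and which the liver of males and young fish can also make when they meet an estrogen. The deposited table lists transcripts by identifier without gene names, and none of the 64593 reference genes of the species could be matched to them (0 matches). The transcripts are therefore named as the table gives them, no role is given to any of them, and markers of tissues or cell types were not looked up. In whole larvae, more RNA of a transcript per cell and more cells of the type that makes it cannot be told apart.

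Depth was similar in both sets. Total counts per library ran from 8.76 to 32.91 M (M for mega) in exposed larvae with a median of 23.3 M, and from 11.7 to 30.6 M in control larvae with a median of 23.6 M. The libraries under 0.5 times the median total were 8 of the exposed set and 1 of the control set. The mean total was 0.897 M counts lower in exposed larvae (two-sided permutation test within experiments, p = 0.373), and the mean share of counts in the 100 most abundant transcripts was 24.6 ± 1.96% in exposed larvae and 24.3 ± 2.04% in control larvae (SD; permutation p = 0.475). For the mean number of transcripts with a read, the difference of exposed minus control larvae was -80.8 (permutation p = 0.112). For the TMM scaling factor it was -0.0154 (permutation p = 0.185). Both were lower in exposed larvae in each of the 3 experiments, but none of these measures differed beyond the spread between libraries. A transcript had a median of 124 counts per library.

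Exposed and control larvae differed in 36 of 35330 transcripts tested, which is 0.102% of them (edgeR's quasi-likelihood test with experiment as a term, Benjamini-Hochberg adjusted p under 0.05). Of these, 23 were higher in exposed larvae (0.0651% of those tested) and 13 were lower (0.0368%). Most of the changes were small. Only 6 of the 36 reached 2-fold and 10 reached 1.5-fold. The median absolute log2 change was 0.33 over the 36 and 0.07 over all transcripts tested, whose median signed change was 0.0035. In experiments 1, 2 and 3 fitted alone, 35 of the 36 had the same direction each time, against 11316 of all 35330 (32.03%); the 36 were chosen on the same larvae, so their count carries no test. The call rests partly on the larvae at 10 ng/L. Without them, and so with 110 libraries in the fit, 7 transcripts were called. Without the larvae at 1.2 ng/L 63 were called.

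The 36 were sorted by whether a test that used no control larva also called them. Between the 5 concentrations, among exposed larvae only, 16 transcripts differed (0.0453% of those tested, edgeR F-test with Benjamini-Hochberg adjustment). Of these, 4 were among the 36, which is 11.1% of the pooled calls and 25% of the concentration calls. Over all transcripts tested, 0.102% were pooled calls and 0.0453% were concentration calls. The overlap was not tested. The other 32 pooled calls, 19 higher and 13 lower, had no called difference between concentrations.

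The 4 transcripts that differed both from control and between concentrations were the 3 with the largest pooled rises, FMt030408, FMt030407 and FMt030406, and FMt019919. The first 3 have consecutive identifiers and are the only run of at least 3 adjacent table identifiers called in 1 direction; the handling of reads that match several transcripts is not stated in the labels. FMt030408 had 0.0947 CPM in the lowest exposed larva, a median of 27.8 CPM and 303.8 CPM in the highest, against 0.169, 0.428 and 1.01 CPM in the lowest, median and highest control larva. Most exposed larvae lay far above the control range, and 92 were above the highest control. The sets still overlapped, because larvae at the lowest concentration sat among the controls. The pooled log2 change was 7.14 ± 0.69 (SE; edgeR adjusted p = 3.03e-14).

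By concentration, the median of FMt030408 was 0.428 CPM in controls and 0.462, 10.4, 27.8, 89.8 and 169.8 CPM at 0.12, 1.2, 2.5, 5 and 10 ng/L. At 0.12 ng/L 2 of 17 larvae were above the highest control, at 1.2 ng/L 28 of 30, and from 2.5 ng/L upward every larva. Its pooled change is thus an average over larvae that differed widely among themselves, and describes no single concentration. Among exposed larvae the level rose by 1.30 ± 0.05 on the log2 scale for each doubling of the concentration (edgeR slope ± SE, adjusted p = 9.18e-46).

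FMt030407 and FMt030406 had the same shape. FMt030407 ran from 0 to 58.6 CPM with a median of 5.20 CPM in exposed larvae, against 0 to 0.337 CPM with a median of 0.0984 CPM in control larvae. FMt030406 ran from 0 to 39.3 CPM with a median of 2.74 CPM in exposed larvae, against 0 to 0.393 CPM with a median of 0.0777 CPM in control larvae. Of the exposed larvae, 90 and 89 were above the highest control. The pooled log2 changes were 6.92 ± 0.73 for FMt030407 and 6.47 ± 0.72 for FMt030406 (SE; edgeR adjusted p = 2.31e-12 and 1.77e-11). By limma-voom none of FMt030408, FMt030407 and FMt030406 was called in the pooled comparison (log2 changes 5.45, 5.32 and 4.84, adjusted p = 0.219, 0.363 and 0.352), nor with its library weights, while the other alternatives called all 3.

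FMt019919 changed less and overlapped more with controls. It ran from 0.0473 to 5.82 CPM with a median of 1.14 CPM in exposed larvae, against 0.0831 to 0.858 CPM with a median of 0.368 CPM in control larvae, and 71 exposed larvae were above the highest control. The pooled log2 change was 2.15 ± 0.28 (SE; edgeR adjusted p = 3.40e-08). At 0.12 ng/L its median was 0.246 CPM, below the control median, and its log2 difference from control there was -0.45 ± 0.19 (SE), which was not called. None of the 4 therefore differed at every concentration: at 0.12 ng/L the log2 differences were 0.31 ± 0.33 for FMt030408, -0.01 ± 0.43 for FMt030407 and 0.13 ± 0.55 for FMt030406, each smaller than its SE.

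**Figure D1:**
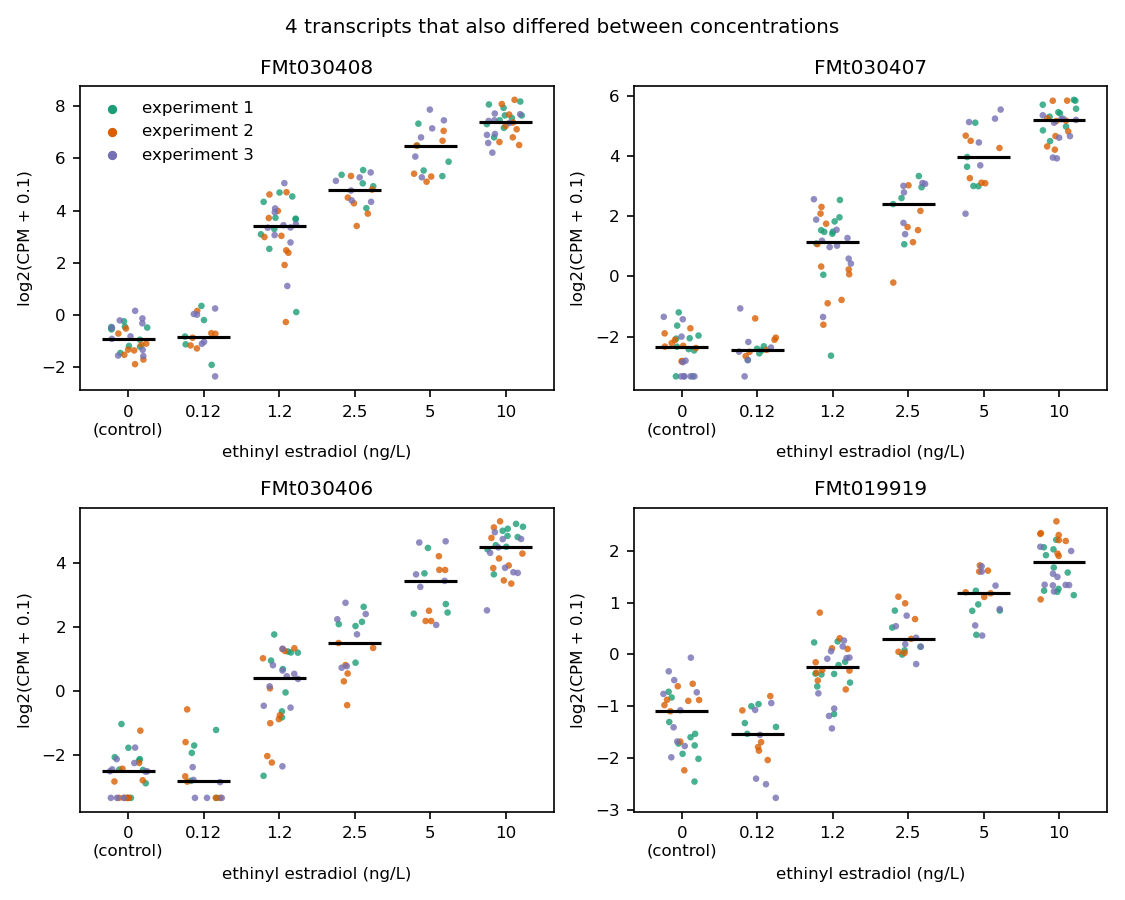
Level of the 4 transcripts called both against control and between concentrations, as log2(CPM + 0.1) of every larva by ethinyl estradiol concentration in ng/L; points are larvae coloured by experiment and bars are group medians. Larvae at 0.12 ng/L lie among the 29 controls, and the medians of FMt030408 climb to 169.8 CPM at 10 ng/L.

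The 32 transcripts without a called difference between concentrations make up the rest of the pooled calls. Most of those named here were also called against control at 10 ng/L alone, for example FMt041475 (edgeR adjusted p = 3.68e-08). Others were not, for example FMt044491 (edgeR adjusted p = 0.455). The 19 that rose did so by 11.1 to 87.5% with a median of 28.7%, and the changes of the 13 that fell ran from -8.15 to -53.3% with a median of -14.5%, in the fitted means. Single larvae of the 2 sets overlapped for every one of them. When each exposed larva was paired with each control of its own experiment, the exposed larva lay on the side of the pooled change in 54.6 to 80.4% of pairs, with a median of 74.98% over the 32. None of the 32 had more than 37 exposed larvae outside the control range in the called direction. Their control medians ran from 1.37 to 452.9 CPM.

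**Figure D2:**
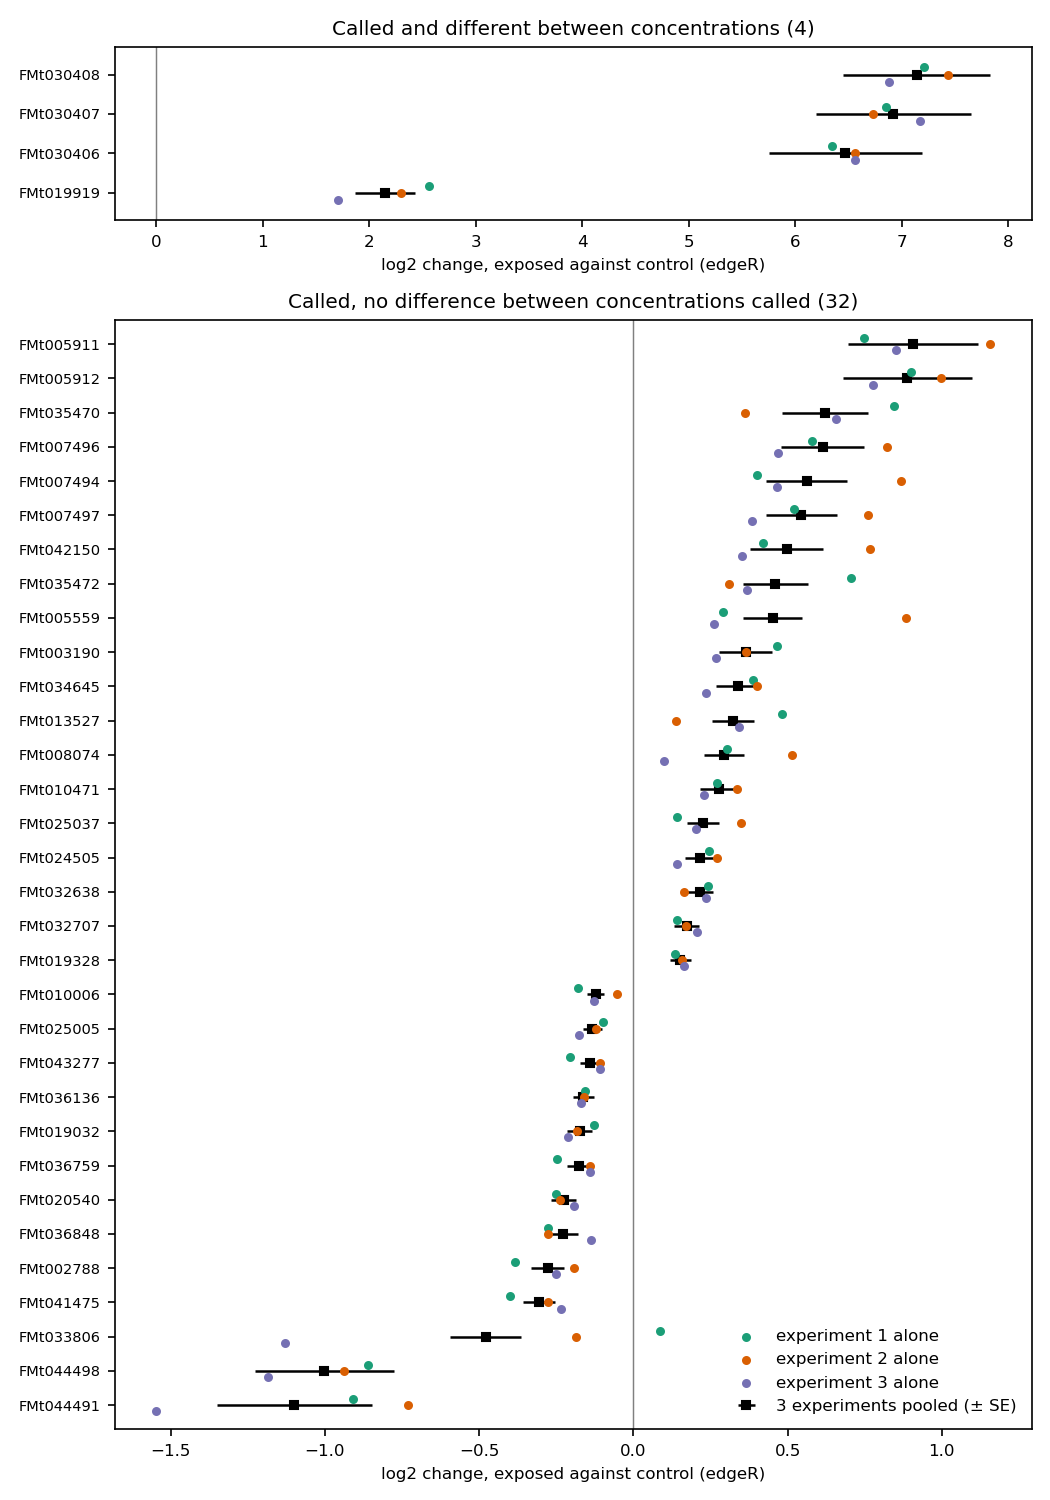
Log2 change of exposed against control larvae for the 36 called transcripts, with the 4 that also differed between concentrations above and the other 32 below. Black squares are the pooled estimates with SE and coloured points the 3 experiments fitted alone, shifted slightly up or down; FMt033806 is the 1 transcript whose experiments disagree in sign.

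Among the rises without a called concentration difference, FMt032638 and FMt013527 had the smallest p. FMt032638 had 14.9, 22.1 and 35.3 CPM in the lowest, median and highest exposed larva, against 14.97, 18.7 and 24.03 CPM in control larvae. The sets shared most of their range, but 99 exposed larvae were above the control median and 24 above the highest control. The log2 change was 0.21 ± 0.04 (SE; edgeR adjusted p = 0.00662). In experiments 1, 2 and 3 alone it was 0.24, 0.16 and 0.23. The medians at 0.12, 1.2, 2.5, 5 and 10 ng/L were 22.1, 21.5, 22.8, 22.3 and 22.4 CPM, all above the control median, and the slope among exposed larvae was 0.01 ± 0.01 per doubling. Taken 1 concentration at a time, only the difference from control at 10 ng/L was called (edgeR adjusted p = 0.000241).

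FMt013527 had 2.97, 6.79 and 12.8 CPM in the lowest, median and highest exposed larva, against 3.38, 5.68 and 8.59 CPM in control larvae. Of the exposed larvae 83 were above the control median and 22 above the highest control, and the log2 change was 0.32 ± 0.07 (SE; edgeR adjusted p = 0.0143). The experiments were uneven. In experiment 1 the median was 9.08 CPM in exposed larvae and 6.37 CPM in control larvae, while in experiment 2 it was 5.80 CPM in exposed larvae and 5.77 CPM in control larvae, with log2 changes of 0.48 and 0.14. Of the single concentrations, only 10 ng/L was called against control (edgeR adjusted p = 0.00709).

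The larger rises came as neighbouring identifiers, and whether neighbours share reads was not tested. FMt007494, FMt007496 and FMt007497 were taken up because of earlier results of these same larvae, so their calls are no independent support. They were called with log2 changes of 0.56 ± 0.13, 0.61 ± 0.13 and 0.54 ± 0.12 (SE, edgeR adjusted p = 0.038, 0.0221 and 0.0143). Between them in the table, FMt007495 had a change of 0.56 ± 0.14 that missed the threshold (adjusted p = 0.058). With 1 control larva left out at a time FMt007494 was called in 10 of 29 fits, and FMt007496 and FMt007497 in all 29. FMt007497 had 54.6, 134.1 and 323.2 CPM in the lowest, median and highest exposed larva, against 38.5, 99.2 and 230.1 CPM in control larvae. Most exposed larvae ran higher, with 86 above the control median and 11 above the highest control, while 23 were below the control median. FMt007496 had 13.5, 43.1 and 115.0 CPM in the lowest, median and highest exposed larva, against 14.0, 30.6 and 61.96 CPM in control larvae. Of the exposed larvae 25 were above the highest control and 2 below the lowest. In pairs within an experiment the exposed larva was higher in 76.5% for FMt007496 and 76.3% for FMt007497. For FMt007497 the medians at 0.12, 1.2, 2.5, 5 and 10 ng/L were 123.1, 135.2, 126.5, 131.8 and 146.8 CPM, each above the control median. Taken 1 concentration at a time, FMt007494, FMt007496 and FMt007497 were each called only at 10 ng/L (edgeR adjusted p = 0.00207, 0.000994 and 0.000264).

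A further 2 pairs of adjacent called transcripts, chosen after their values were seen, were FMt005911 with FMt005912 and FMt035470 with FMt035472. FMt005911 and FMt005912 had the largest rises without a called concentration difference, 0.91 ± 0.21 and 0.89 ± 0.21 on the log2 scale (SE; edgeR adjusted p = 0.038 and 0.0426). FMt005911 had 2.64, 6.98 and 39.9 CPM in the lowest, median and highest exposed larva, against 2.18, 4.57 and 16.8 CPM in control larvae. Of the exposed larvae 87 were above the control median and 18 above the highest control, while the lower ends of the sets nearly met. These calls were not firm: leaving out 1 control larva at a time, FMt005911 was called in 12 of 29 fits and FMt005912 in 7 of 29, and of the 20 other alternatives 9 and 8 called them. At 0.12 ng/L the median of FMt005911 was 9.54 CPM, in the larvae at 10 ng/L it was 7.15 CPM, and the slope among exposed larvae was -0.04 ± 0.04 per doubling, which was not called. FMt035470 and FMt035472 rose by 0.62 ± 0.14 and 0.46 ± 0.11 on the log2 scale (SE; edgeR adjusted p = 0.0278 and 0.0326), with 30 and 31 exposed larvae above the highest control. The medians of FMt035470 were 15.3 CPM in exposed larvae and 11.2 CPM in control larvae, and its highest median was at 0.12 ng/L, at 18.96 CPM. With 1 control larva left out FMt035470 and FMt035472 were called in 22 and 15 of 29 fits, and in 11 and 10 of the 20 other alternatives.

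FMt034645, named after its values were seen, was the riser with the highest CPM, a scale that is not per transcript length. It had 282.4, 539.0 and 1199 CPM in the lowest, median and highest exposed larva, against 286.2, 452.9 and 758.0 CPM in control larvae, with 17 exposed larvae above the highest control. Its log2 change was 0.34 ± 0.07 (SE; edgeR adjusted p = 0.0143), and in experiments 1, 2 and 3 alone it was 0.39, 0.40 and 0.24. Of the single concentrations, only 10 ng/L was called for FMt034645 (edgeR adjusted p = 0.0022). The smallest rise called was that of FMt019328, also named afterwards, at 0.15 ± 0.03, with medians of 113.6 CPM in exposed larvae and 99.1 CPM in control larvae. It too was called at 10 ng/L only (edgeR adjusted p = 0.00827). With 1 control larva left out at a time its pooled change was called in 16 of 29 fits, and in 14 of the 20 other alternatives.

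Of the falls without a called concentration difference, FMt041475 and FMt020540 had the smallest p. FMt041475 had 63.9, 138.9 and 255.7 CPM in the lowest, median and highest exposed larva, against 102.7, 156.1 and 265.8 CPM in control larvae. No exposed larva was above the highest control and 24 were below the lowest. The log2 change was -0.31 ± 0.05 (SE; edgeR adjusted p = 0.000326). Levels differed between experiments more than between the sets: the medians in experiments 1, 2 and 3 were 95.04, 144.3 and 167.2 CPM in exposed larvae and 114.6, 157.8 and 194.7 CPM in control larvae, and the log2 changes were -0.40, -0.28 and -0.24.

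FMt041475 was the transcript of the 32 with the steepest downward slope among exposed larvae. Its median was 156.1 CPM in controls and 150.6, 147.4, 143.7, 131.3 and 120.2 CPM at 0.12, 1.2, 2.5, 5 and 10 ng/L. The slope among exposed larvae was -0.05 ± 0.01 per doubling, with an unadjusted edgeR p of 2.72e-05 and an adjusted p of 0.080, so it missed the threshold. The absence of a call between concentrations therefore does not show that FMt041475 was level.

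FMt020540 had 25.4, 48.9 and 67.9 CPM in the lowest, median and highest exposed larva, against 40.5, 57.4 and 86.1 CPM in control larvae. Of the exposed larvae 10 were above the control median and 25 below the lowest control. The log2 change was -0.23 ± 0.04 (SE; edgeR adjusted p = 0.000574), and the experiments alone gave -0.25, -0.24 and -0.19. Its medians at 0.12, 1.2, 2.5, 5 and 10 ng/L were 51.7, 50.3, 47.8, 46.5 and 47.5 CPM, all below the control median. Taken 1 concentration at a time, only the difference from control at 10 ng/L was called (edgeR adjusted p = 0.000233).

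A slope was called for 9 transcripts among exposed larvae (0.0255% of those tested), 8 upward and 1 downward, and the downward one, FMt036759, was among the 32. It fell by 0.04 ± 0.01 on the log2 scale for each doubling (edgeR adjusted p = 0.0195), although the F-test between its concentrations was not called. FMt036759 had 49.3, 91.4 and 131.9 CPM in the lowest, median and highest exposed larva, against 70.1, 110.2 and 133.1 CPM in control larvae, a pooled log2 change of -0.18 ± 0.04 (SE; edgeR adjusted p = 0.0143). The larvae at 0.12 ng/L, with a median of 107.5 CPM, lay next to the controls, and those at 10 ng/L had a median of 87.8 CPM. FMt002788, named after its values were seen, behaved alike, with medians of 109.05 CPM in controls, 107.8 CPM in larvae at 0.12 ng/L and 84.9 CPM in those at 10 ng/L, and a pooled change of -0.28 ± 0.05 (adjusted p = 0.00623); its slope of -0.04 ± 0.01 was not called (adjusted p = 0.606).

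The 2 largest falls had another form. FMt044491 had 3.74, 11.7 and 147.2 CPM in the lowest, median and highest exposed larva, against 7.04, 11.99 and 191.0 CPM in control larvae, so the medians hardly differed although the log2 change was -1.10 ± 0.25 (SE; edgeR adjusted p = 0.0326). The larvae formed 2 levels with no value between 21.9 and 41.6 CPM. At the upper level were 6 exposed larvae, which is 5.50% of that set (exact 95% binomial interval 2.05 to 11.6%), and 7 of 29 control larvae, which is 24.1% (10.3 to 43.5%). Among larvae at the lower level the medians were 11.6 CPM in exposed larvae and 10.6 CPM in control larvae. In these larvae the fitted fall thus came with the share at the upper level, and hardly with the level of the other larvae. The 2 intervals overlap, and FMt044491 was picked for its fall in the same larvae, so the shares are descriptions and carry no test.

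FMt044498, close by in the numbering, picked out the same larvae. It had 0.985, 4.88 and 50.05 CPM in the lowest, median and highest exposed larva, against 2.23, 5.28 and 58.9 CPM in control larvae, with no value between 10.5 and 24.3 CPM, and its log2 change was -1.001 ± 0.226 (SE; edgeR adjusted p = 0.0278). At the upper level were 5 exposed larvae and 7 of 29 control larvae, and 12 larvae were at the upper level of both transcripts. In experiments 1, 2 and 3 the upper level of FMt044491 held 2, 1 and 3 exposed larvae and 2, 1 and 4 control larvae. The intervals cover counting error only, and the gaps were placed after the values were seen. With 1 control larva left out FMt044491 and FMt044498 were called in 22 and 23 of 29 fits, and in 11 and 9 of the 20 other alternatives.

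FMt033806, named after its values were seen, was the 1 call whose experiments differed in sign. It had 0.455, 1.44 and 2.63 CPM in the lowest, median and highest exposed larva, against 0.934, 1.37 and 6.63 CPM in control larvae, so its exposed median was the higher one although the fitted change was -0.48 ± 0.11 (SE; edgeR adjusted p = 0.046). Above 2.63 CPM, the level of the highest exposed larva, lay 5 of 29 control larvae, which is 17.2%, 4 of them from experiment 3. That cut was placed after the values were seen. The count of 0 exposed larvae above it follows from the cut, so no interval is read from it. The log2 change was 0.09 in experiment 1, -0.19 in experiment 2 and -1.13 in experiment 3. With 1 control larva left out FMt033806 was called in 19 of 29 fits. Of the 19 other alternatives that gave it an adjusted p, 7 called it.

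**Figure D3:**
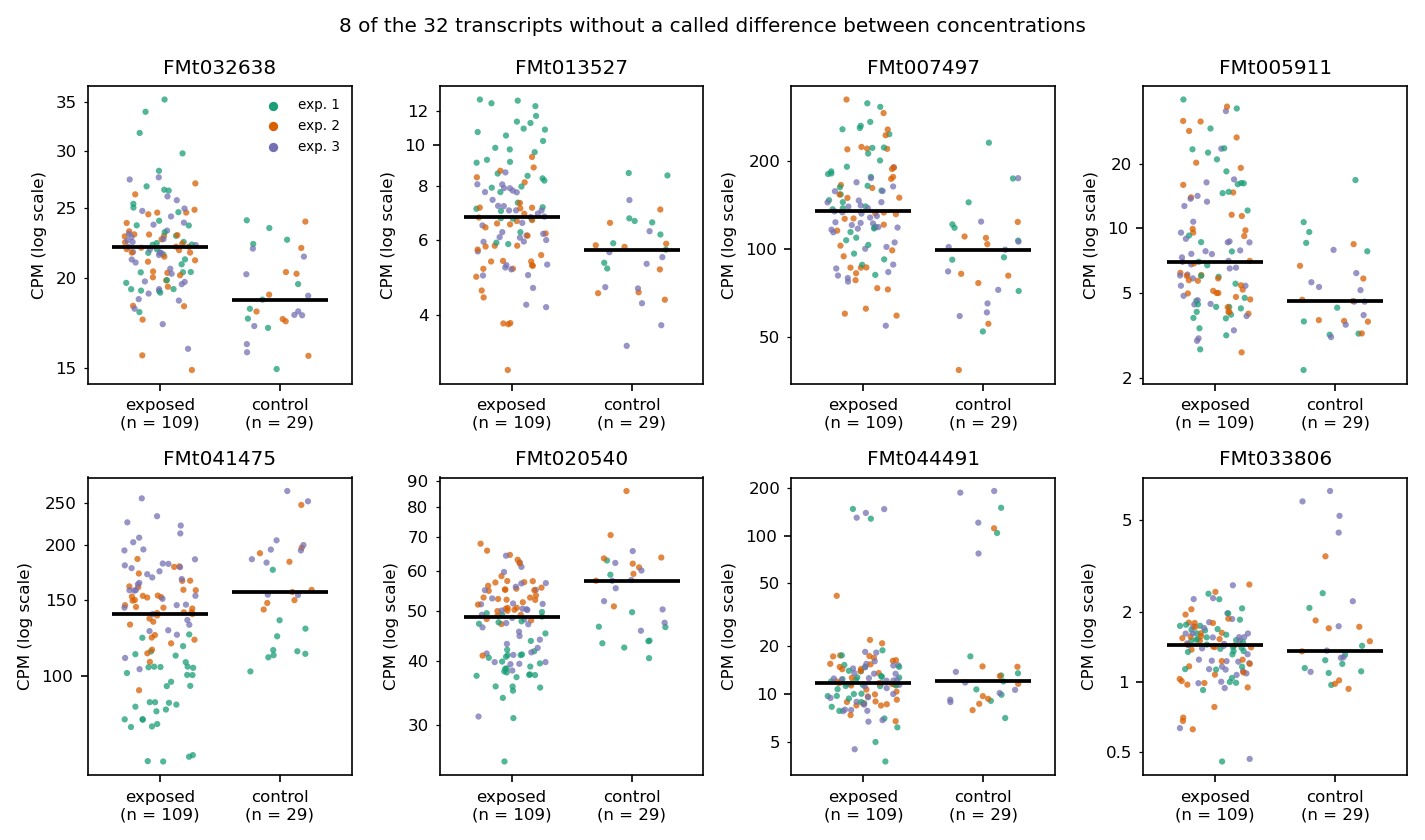
Level of 8 of the 32 transcripts in CPM on a log axis, for exposed larvae at left and 29 control larvae at right in each panel; points are larvae coloured by experiment and bars are medians. The sets overlap in all 8, the shift of FMt032638 and FMt020540 runs through the whole set, and the fall of FMt044491 comes from larvae above 41.6 CPM.

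Across concentrations, the 19 risers without a called concentration difference had median log2 differences from control of 0.33, 0.30, 0.37, 0.37 and 0.45 at 0.12, 1.2, 2.5, 5 and 10 ng/L. The 13 fallers had -0.14, -0.17, -0.17, -0.25 and -0.29 at the same concentrations. All 5 comparisons share the 29 controls and the transcripts were chosen on all larvae together, so the common sign is not a result. The slopes among exposed larvae, which use no control, lay between -0.05 and 0.06 per doubling for the 32, and 12 of the 32 had an unadjusted slope p under 0.05, against 984 of all 35330. Without the larvae at 10 ng/L the median change of the 32 in the pooled direction was 0.26 on the log2 scale, compared with 0.30 with all larvae, and 3 of the 32 were called: FMt041475, FMt020540 and FMt044491.

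**Figure D4:**
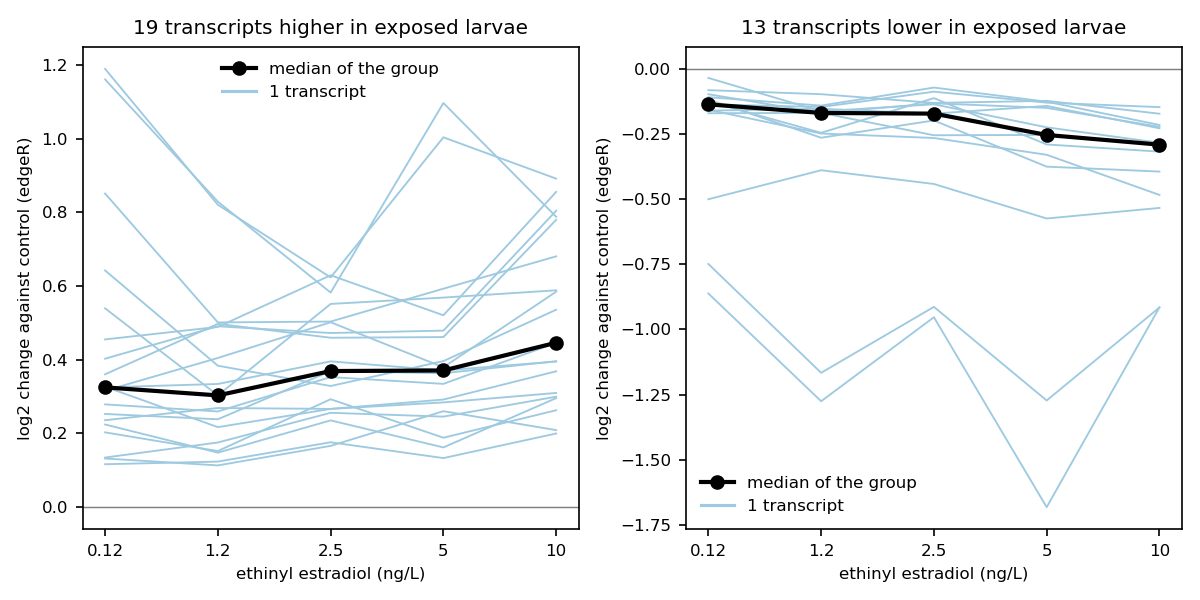
Log2 difference from control at each ethinyl estradiol concentration for the 32 transcripts without a called concentration difference, 19 called higher at left and 13 called lower at right; thin lines are transcripts and the black line is their median. The median moves between 0.30 and 0.45 in the risers and between -0.14 and -0.29 in the fallers, and all points share the same 29 controls.

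The 3 experiments share no larvae, so a change found in 2 of them was read in the third. With experiment 3 left out 16 transcripts were called, and 14 of these had the same direction in experiment 3, 8 of them with an unadjusted edgeR p under 0.05 there. With experiment 2 left out 7 were called, of which 7 had the same direction in experiment 2 and 4 the small p; with experiment 1 left out 6 were called, of which 4 had both in experiment 1. Over all transcripts the same direction was found for 58.2, 58.03 and 53.7% with experiments 3, 2 and 1 left out, and the same direction together with an unadjusted p under 0.05 for 4.03, 2.81 and 2.27%. The 4 transcripts that rose with concentration account for 4 of the agreeing calls each time.

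Apart from these 4, the transcripts that met both criteria in experiment 3 were all falls: FMt041475, FMt020540, FMt002788 and FMt036759. FMt041475 changed by -0.35 ± 0.06 in experiments 1 and 2 and by -0.24 ± 0.10 in experiment 3 (SE, log2; edgeR p = 0.0231). FMt020540 changed by -0.25 ± 0.05 and, in experiment 3, by -0.19 ± 0.08 (p = 0.0153). FMt002788 changed by -0.30 ± 0.07 and then -0.25 ± 0.10 (p = 0.0112), and FMt036759 by -0.20 ± 0.04 and then -0.14 ± 0.07 (p = 0.0461). These p-values are unadjusted, and each change was smaller in the experiment that had not been used.

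Besides the 4 concentration-dependent transcripts, 4 rises were called with an experiment left out; each had the same direction in that experiment but no unadjusted p under 0.05. FMt008074 changed by 0.40 ± 0.07 in experiments 1 and 2 and by 0.10 ± 0.12 in experiment 3, and FMt013527 by 0.41 ± 0.08 in experiments 1 and 3 and by 0.14 ± 0.13 in experiment 2 (SE, log2). FMt005559, at 0.55 ± 0.12 in experiments 1 and 2, had 0.26 ± 0.16 in experiment 3, and FMt008261 at 0.24 ± 0.05 had 0.04 ± 0.08. Several falls kept the direction without that p as well. FMt036848 changed by -0.28 ± 0.05 in experiments 1 and 2 and by -0.14 ± 0.10 in experiment 3, FMt002977 by -0.21 ± 0.05 and then -0.06 ± 0.08, and FMt010006 by -0.16 ± 0.03 in experiments 1 and 3 and by -0.05 ± 0.05 in experiment 2. FMt002788, which met both criteria in experiment 3, was called with experiment 2 left out as well. It changed by -0.32 ± 0.06 in experiments 1 and 3 and by -0.19 ± 0.11 in experiment 2 (unadjusted edgeR p = 0.079). Whether rises and falls differ in this was not tested. The falls of at least 2-fold had changes near 0 or of the other sign in the experiment left out: FMt037702 had -1.24 ± 0.27 in experiments 1 and 2 and -0.04 ± 0.33 in experiment 3. FMt040346 and FMt040348 were lower by 1.94 and 1.95 on the log2 scale in experiments 1 and 2, and had 0.42 ± 0.83 and 0.45 ± 0.88 in experiment 3. FMt033805 and FMt033806, called lower without experiment 1, had 0.06 ± 0.08 and 0.09 ± 0.15 in experiment 1.

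**Figure D5:**
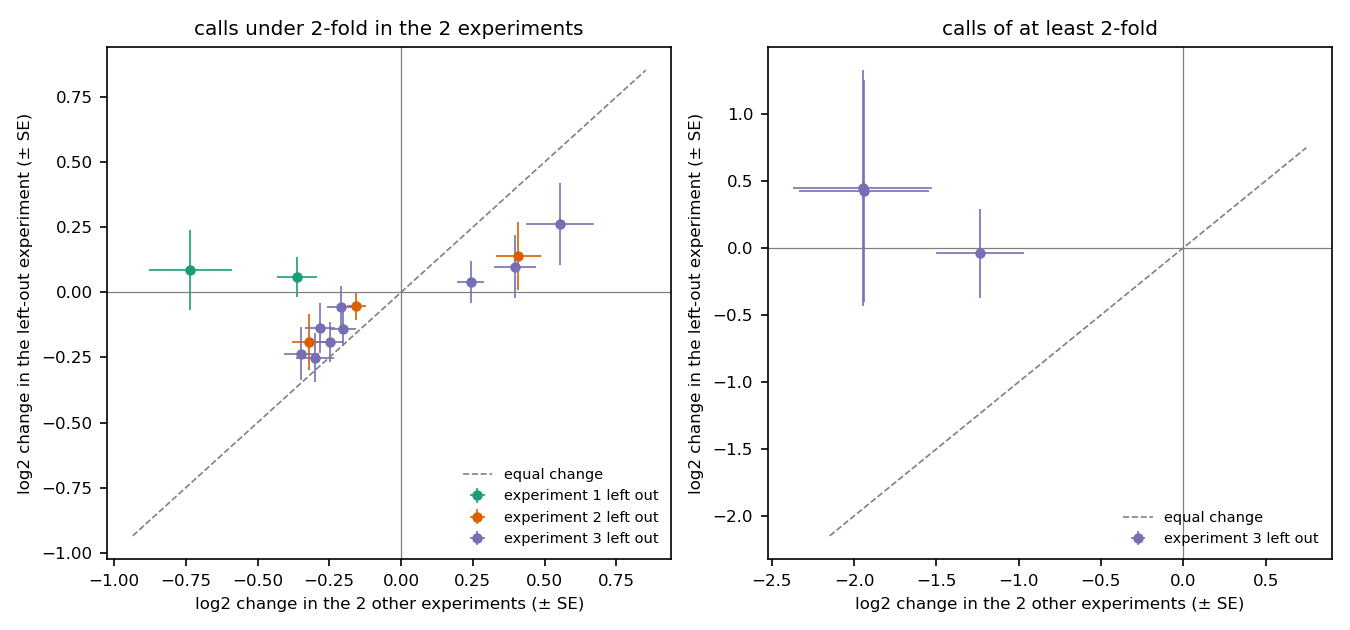
Log2 change in the experiment left out against log2 change in the other 2 experiments that gave the call, both with SE, for the 17 calls besides the 4 concentration-dependent transcripts; colours name the experiment left out and the dashed line marks equal change. Points lie between 0 and the dashed line except FMt033805 and FMt033806 at left and FMt040346 and FMt040348 at right, which are above 0. FMt037702 at right lies just below 0, at -0.04.

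The wider list carried over in part. Of the 100 transcripts with the smallest p in experiments 1 and 2, 84 had the same direction in experiment 3, with a median absolute log2 change of 0.40 in the pair and a median of 0.14, signed by the pair's direction, in experiment 3. With experiment 2 left out 75 of 100 agreed in direction, with medians of 0.35 and 0.09, and with experiment 1 left out 71 of 100 agreed, with medians of 0.44 and 0.10. Over all transcripts 58.2, 58.03 and 53.7% agreed in direction with experiments 3, 2 and 1 left out. The length of 100 was chosen after earlier results of these data were known, and the counts are descriptions.

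In each experiment alone, few transcripts were called. Experiment 1 gave 5 (0.0142% of those tested), experiment 2 gave 3 (0.00849%) and experiment 3 gave 4 (0.0113%). FMt030408 was called in all 3, FMt030407 and FMt030406 in experiments 1 and 3, and FMt019919 in experiment 1. The others were each called in 1 experiment. FMt018170 fell in experiment 1 by 1.35 ± 0.25 (SE, log2; edgeR adjusted p = 0.0126) and had 0.24 ± 0.35 and -0.06 ± 0.23 in experiments 2 and 3. FMt040346 and FMt040348 fell in experiment 2 by 2.97 ± 0.54 and 3.02 ± 0.57 (adjusted p = 0.0312 and 0.0348), and FMt033806 fell in experiment 3 by 1.13 ± 0.20 (adjusted p = 0.00908). Control larvae carried the extremes in the experiment of the call. FMt018170 reached 176.9 CPM in a control larva of experiment 1, where the control median was 15.4 CPM and the highest exposed larva had 22.99 CPM. Elsewhere exposed larvae could be the extremes. In experiment 3 the highest exposed larvae had 41.8 CPM of FMt040346 and 86.0 CPM of FMt040348, against 9.25 and 21.4 CPM in the highest controls. For FMt033806 the highest larva was a control in each experiment.

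The interaction of exposure and experiment was called for 0 transcripts by edgeR and 0 by limma-voom, and 1098 of 35330 had an unadjusted edgeR p under 0.05. The smallest belonged to FMt033806 (p = 1.04e-05, adjusted p = 0.367), and 3 of the 36 calls had an unadjusted interaction p under 0.05. In simulated data the interaction test recovered 58% of transcripts changed 2-fold by exposure in experiment 3 only, and smaller changes were not simulated. The 0 calls therefore do not show that the experiments agreed. Whether exposed larvae varied more or less between individuals than controls was tested on the deviations from the median of each concentration and experiment. By limma 0 transcripts were called, and 809 had an unadjusted p under 0.05; with deviations from the mean 1 was called, FMt039803, named because the list is short. In simulated data the same test recovered 66% of transcripts whose dispersion was changed 40-fold and 12% of those changed 6-fold, so differences in spread of ordinary size were not detectable here.

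The threshold fell within a dense range of p-values. The last transcripts called were FMt042150 (log2 change 0.50 ± 0.12, edgeR adjusted p = 0.0459) and FMt033806, and the first not called were FMt008261 (0.17 ± 0.04, adjusted p = 0.0507) and FMt030726 (0.27 ± 0.06, adjusted p = 0.0507). In all, 2667 of 35330 transcripts had an unadjusted p under 0.05, which is 7.55%. Leaving out any 1 of the 29 control larvae gave 22 to 58 calls, and 17 of the 36 were called each time. Those 17 hold the 4 concentration-dependent transcripts, FMt032638, FMt013527, FMt041475 and FMt020540, and also FMt007496 and FMt007497.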

How the data were processed

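Per the labels' protocols, frozen larvae were lysed in MagMax buffer and sequenced with Lexogen's SENSE mRNA kit. Raw counts of reads per transcript and library, deposited by the authors as 1 table, come from mapping to a set of known mRNAs, per the design text. The submitters' processing notes name edgeR 3.26.8, limma 3.40.6 and bcl2fastq 2.19.1. Neither aligner, counter nor strand setting is given in the sources used here. The table holds 37085 transcripts and a row without an identifier, with 1.64e-05% of the reads, which was left out. No column was left unmapped (0 columns). No libraries were copies: within groups and experiments, 503 pairs had chi-square statistics of at least 8.68 times the degrees of freedom.

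With edgeR 4.0.16 (R 4.3.3), counts filtered by filterByExpr (minimum count 10, minimum total 15) were scaled by TMM and fitted with robust quasi-likelihood models on experiment and exposure; differences between concentrations stay in the residual of that model. SEs are the log2 change divided by the square root of F. CPM are scaled to the TMM-adjusted total and are not corrected for transcript length. Spread was tested with limma 3.58.1 on log2 CPM with a prior count of 2. Named are, per comparison, the 2 largest called rises and falls (mean CPM 1 or more) and, for the pooled comparison, the same direction in all 3 experiments, the 2 rises and 2 falls with the smallest p among calls without a concentration difference, lists of up to 5 whole, and 8 transcripts from earlier work; others are marked. By this rule the concentration test also names FMt043101 and FMt046088, neither called against control. Their slopes of -0.30 ± 0.08 and -0.28 ± 0.09 per doubling (SE) were not called, and at 0.12 ng/L 1 larva had 85.6 CPM of FMt043101 where the median was 0.463 CPM. The members, lists and tests were chosen with earlier results of these data known.

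On simulated counts of 35330 transcripts with 50 changed at each size, the pooled comparison recovered 28, 68, 76 and 90% of 1.15-, 1.25-, 1.5- and 2-fold changes, with 5 false calls among 151. With 151 calls there against 36 in the larvae, the adjusted threshold was easier to reach in the simulation. Simulated larvae were also independent, without shared vessels or transcripts at 2 levels. The recovery and the false calls therefore need not hold for the real larvae. Alternatives were RLE scaling, 2 filters, DESeq2 1.42.0, limma-voom with and without library weights, a fit without experiment, a block for the title number, equal weight for each concentration, and left-out libraries, concentrations and experiments. Leaving out library C53 and single controls was added after the data were seen.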

Additional observations from a re-analysis of the deposited data

Results flagged for a closer look

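Library D07 at 2.5 ng/L was used only in the alternatives that include it. In scaled CPM it held the 4 concentration-dependent transcripts above the level of every control larva. When all libraries were scaled together it had 77.9 CPM of FMt030408, 14.0 CPM of FMt030407 and 3.04 CPM of FMt030406, while the highest control larvae had 1.00, 0.338 and 0.388 CPM. FMt019919 stood at 0.967 CPM from 7 reads, close to the highest control at 0.851 CPM. The other 17 larvae at 2.5 ng/L had medians of 27.6 CPM of FMt030408 and 5.14 CPM of FMt030407, and D07 lay above the highest of them, which had 46.8 and 10.1 CPM. D07 also had the lowest scaling factor, 0.468, and 36.0% of its counts in the 100 most abundant transcripts. Its CPM are counts over its total of 15.5 M times that factor, which raises every value. It had 564 reads of FMt030408, 101 of FMt030407 and 7 of FMt019919. Over the unscaled total, FMt030408 and FMt030407 fall below the values given for the highest of the other 17 larvae. FMt019919 then falls below the highest control. The part of the 100 most abundant transcripts was not tested.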

How the results depend on the processing

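No call among the 36 changed direction under any of 20 alternatives (0 reversals), 31 were called in at least 10 of them, and 1, FMt019919, in every one that gave it an adjusted p. The alternatives refit all or most of the larvae on which the 36 were chosen, so the kept directions carry no test. The count was 76 with DESeq2, 22 with limma-voom and 79 with its library weights, 9 without the experiment term, 19 without shallow libraries, 63 without the 1.2 ng/L larvae, 7 without the 10 ng/L larvae, 8 at an adjusted p under 0.01 and 10 at 1.5-fold or more. Without experiment 1, 2 or 3 it was 6, 7 and 16. Leaving out 1 control gave 22 to 58; controls 23, 37 and 53 each gave 22 and control 57 gave 58. The cause was not tested. With 1.5 times as the limit, RLE scaling (39), no filter (41), the 1 CPM filter (43), equal weights (38), D07 included (28), without C53 (35) and without the 0.12, 2.5 or 5 ng/L larvae (35, 39 and 30) gave similar counts. FMt030408, FMt030407 and FMt030406 lost the call with limma-voom (adjusted p = 0.219, 0.363 and 0.352) and with its library weights (0.156, 0.239 and 0.213). Among concentrations the 16 calls became 7 with limma-voom and 26 without the experiment term. Calls within experiments became 0 each with limma-voom, and the spread test called 1 with deviations from the mean. The exposed minus control difference in mean total was 1.37 M counts in experiment 2 and that in the share of the 100 most abundant transcripts -0.173 and -0.0603 percentage points in experiments 1 and 2, where the pooled ones were -0.897 M counts and 0.29.

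The title numbers were not taken as pairs. Over 172 same-numbered pairs the median correlation of deviations was -0.02 and 19.2% were over 0.1. Over 1881 other pairs the median was -0.05 and 16.3% were over 0.1. In all, 14 libraries correlated best with their own number, a count for which no chance level was computed. Whether same-numbered larvae were more alike than others was not tested. With the number as a block the pooled calls were 21, of which 17 were among the 36, and those between concentrations 7.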

Other observations

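Some called transcripts moved together from larva to larva. The 6 pairs examined within each set, 12 relations in all, were chosen after the values were seen, and log2 CPM were centred within each concentration and experiment. Over all exposed larvae FMt007496 and FMt007497 had r = 0.929 and rho = 0.926, and over 29 control larvae r = 0.897 and rho = 0.914 (permutation p = 1e-05 for each, the smallest 100000 resamples can give; adjusted p = 3e-05). Without the 2 larvae farthest from the median r was 0.929 in exposed larvae and 0.877 in control larvae. In experiments 1, 2 and 3 it was 0.936, 0.941 and 0.87 in exposed larvae. FMt007496 and FMt007497 have consecutive identifiers, and the handling of reads that match several transcripts is not stated in the labels. Whether the 2 share reads was not tested.

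Risers from distant parts of the numbering moved together more loosely. FMt007497 and FMt035472 had r = 0.556 and rho = 0.519 in exposed larvae (permutation p = 1e-05 each, adjusted p = 3e-05), and r = 0.489 and rho = 0.58 in control larvae (adjusted permutation p = 0.0216 and 0.00418). Without the 2 farthest larvae r was 0.555 in exposed larvae and 0.432 in control larvae. FMt007497 and FMt005911 had r = 0.567 and rho = 0.538 in exposed larvae (adjusted permutation p = 3e-05 each, r = 0.539 without the 2 farthest larvae), but the experiments gave 0.752, 0.583 and 0.235; in control larvae r was 0.432 and rho 0.446 (adjusted permutation p = 0.0439 and 0.0343, r = 0.335 without the 2 farthest), and experiment 3 gave -0.144.

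The fallers FMt041475 and FMt002788 had r = 0.233 and rho = 0.255 in exposed larvae (adjusted permutation p = 0.0307 and 0.0204, r = 0.223 without the 2 farthest larvae), with 0.0437 in experiment 1 and 0.477 in experiment 3. In control larvae r was 0.591 and rho 0.484 (adjusted permutation p = 0.00149 and 0.0171, r = 0.495 without the 2 farthest). FMt030408 and the riser FMt007497 had r = -0.224 and rho = -0.147 in exposed larvae (adjusted permutation p = 0.0407 and 0.2), and r = -0.0953 without the 2 farthest larvae, so that relation rests on those larvae. In control larvae r was -0.0683 and rho -0.131 (adjusted permutation p = 0.728 and 0.509). The riser FMt007497 and the faller FMt041475 had r = 0.107 and rho = 0.0883 in exposed larvae, and r = 0.2 and rho = 0.137 in control larvae (adjusted permutation p from 0.339 to 0.509).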
